A study of Homo sapiens with 60 samples.

Results

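The upper dose step of Soyo-san in HepG2 cells was described by setting the 3 libraries of cells given the extract at 500 µg/mL against the 3 given it at 100 µg/mL, gene by gene across the genome. The libraries were taken by their sample codes and treatment labels, and make up 6 of the 60 RNA-seq libraries of the series. HepG2 is a human hepatocellular carcinoma cell line that keeps much of the secretory and metabolic programme of hepatocytes. Soyo-san is a multi-herb formula of Korean medicine, given here as a water extract for 24 h. The vehicle was DMSO, at 0.1% by the treatment labels of the vehicle libraries and at 2% by the series design text, and the labels of the extract libraries name no DMSO. Beside the 500 and 100 µg/mL groups, 3 libraries at 20 µg/mL and 3 vehicle libraries (DMSO alone) are used here for the dose course. The 500 and 100 µg/mL libraries of another 3 water extracts, the formulas Okbyeongpung-san and Guibi-tang and the single herb Menthae Herba (mint, a usual ingredient of Soyo-san), serve for comparison, with 3 libraries per dose. The spread behind the p-values was estimated over 57 libraries in 19 groups. These also include the 20 µg/mL libraries of those 3 extracts. The herb Saposhnikoviae Radix and the formula Saengmaek-san, water extracts at the same doses, are in the fit as well. Whether replicates came from separate cultures is not labelled. P-values therefore reflect no more than the variation among the libraries of the fit, which may be technical.

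Several of the genes described below belong to well-known liver circuits. The aryl hydrocarbon receptor binds planar aromatic ligands and switches on CYP1A1, while the transcription factor MTF1 senses free zinc and drives the metallothioneins, small proteins that buffer zinc and copper. BMP ligands act through SMAD proteins to raise hepcidin, the liver hormone that blocks iron export, together with the ID genes and the feedback inhibitors SMAD6 and SMAD7. FOXO1, held back by insulin signalling, drives IGFBP1 and G6PC1, and the SREBP factors drive the enzymes of sterol and fatty acid synthesis.

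The libraries held 20446542 to 28128318 expected counts, and levels are given as CPM, the counts relative to the scaled library total. CPM are not scaled by transcript length, so levels are compared between libraries and not between genes. Of 16644 genes tested, 822 (4.94%) had an adjusted p under 0.05 in the quasi-likelihood test of edgeR (Benjamini-Hochberg adjustment), the threshold for a call throughout. 481 genes (2.89%) were higher and 341 (2.05%) were lower at 500 µg/mL. These shares of all genes tested are the background for the list counts given below. Most changes were small. The median absolute log2 fold change of the called genes was 0.297, and at least 2-fold changes were found in 8 higher and 11 lower genes. The 3 libraries of one dose did not overlap with the 3 of the other in 812 of the 822 called genes, against 3536 of all 16644. No overlap was also a condition for naming the largest increases and decreases. Statements of no overlap below thus describe the values and add no support of their own to a call. Protein-coding genes made up 454 of the higher and 331 of the lower ones. Without replicate 3 at 500 µg/mL the count of called genes was 514. That library also had the highest share of counts from mitochondrially encoded genes, 13.8%, against 10.4% and 11.8% in the other 500 µg/mL libraries and 10.1 to 11.5% at 100 µg/mL. Its part in the results was not tested.

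CYP1A1, the cytochrome P450 that is the best-known target of the aryl hydrocarbon receptor, had the largest increase among called genes with a mean of at least 5 CPM at either dose. It stood at 97.7, 99.1 and 97.6 CPM at 500 µg/mL, against 21.9, 24.2 and 19.9 CPM at 100 µg/mL, with no overlap and a log2 fold change of 2.16 ± 0.06 (SE; edgeR adjusted p = 7.02e-33). The gene lies at chr15:74719542-74725610 in GENCODE v29 on GRCh38. Its promoter (RefSeq, GRCh38.p14, chr15:74725479-74725778, minus strand, 250 bases before to 50 after the start) is shown because CYP1A1 led the response. The capitals mark the only GCGTG, the core of the receptor's response element, found on either strand at position −57 from the start.
CYP1A1: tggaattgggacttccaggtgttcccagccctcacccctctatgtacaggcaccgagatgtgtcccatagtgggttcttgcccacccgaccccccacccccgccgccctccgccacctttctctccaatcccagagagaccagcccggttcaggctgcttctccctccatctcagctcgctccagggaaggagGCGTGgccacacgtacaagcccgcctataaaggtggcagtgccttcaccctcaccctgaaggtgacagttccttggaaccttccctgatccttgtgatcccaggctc
At least 1 GCGTG on either strand is held by 36.3% of 27305 RefSeq promoters of the same window. The match is a description of the letters only.

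Of 6 tested AHR targets, 2 rose, CYP1A1 and NQO1, a quinone reductase that is also a target of NRF2, the factor of the oxidative stress response. NQO1 had 548.4, 533.5 and 529.5 CPM at 500 µg/mL, against 438.1, 414.6 and 430.7 CPM at 100 µg/mL (log2 fold change 0.33 ± 0.05, edgeR adjusted p = 8.78e-07). The other targets did not pass the test. Of all genes tested, 2.89% rose and 2.05% fell. TIPARP, an ADP-ribosyltransferase that restrains the receptor, had a log2 fold change of −0.09 (edgeR adjusted p = 0.669), and AHRR, the receptor's repressor, had one of 0.50 (edgeR adjusted p = 0.37). Of 22 NRF2-linked glutathione and thioredoxin genes, 6 rose and 1 fell, with a median log2 fold change of 0.112. GCLM, a subunit of the enzyme that starts glutathione synthesis, was among those that rose (log2 fold change 0.30, edgeR adjusted p = 2.32e-04). HMOX1, the haem oxygenase that many stresses induce, was at 55.8, 57 and 55.9 CPM at 500 µg/mL and 61.4, 58.4 and 62.6 CPM at 100 µg/mL (edgeR adjusted p = 0.403). AKR1B10, an aldo-keto reductase that reduces aldehydes and retinal, rose to 72.4, 72.4 and 70.0 CPM at 500 µg/mL, against 47.5, 44.3 and 49.1 CPM at 100 µg/mL (log2 fold change 0.61 ± 0.06, edgeR adjusted p = 1.13e-10). GSTA1, a glutathione transferase abundant in liver, fell to 22.1, 21 and 22.4 CPM, against 38.5, 38.3 and 37.5 CPM at 100 µg/mL (log2 fold change −0.80 ± 0.10, edgeR adjusted p = 2.46e-07). GSTA1 shares sequence with GSTA2, so its counts depend on how shared reads were assigned.

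The metallothioneins were the list with the largest fall. Of 7 tested members 6 were lower at 500 µg/mL and none was higher, with a median log2 fold change of −1.41, beside −0.00303 over all 16644 genes. Summed over the family, the level was 147.2, 136.1 and 142.8 CPM at 500 µg/mL, against 343.5, 329.4 and 317.6 CPM at 100 µg/mL. All metallothionein genes lie in a cluster on chromosome 16 and share much sequence, so a single member's counts are less certain than the sum. MT1G had 13, 10.8 and 11.5 CPM at 500 µg/mL, against 46.2, 44.7 and 41.9 CPM at 100 µg/mL (log2 fold change −1.91 ± 0.16, edgeR adjusted p = 6.25e-11). MT1F, MT1E and MT1X fell by 1.77, 1.41 and 1.31 on the log2 scale. MT2A, the ubiquitous member, fell least among the called ones, with 82.6, 78.2 and 86.3 CPM at 500 µg/mL, against 164.7, 159.4 and 144.9 CPM at 100 µg/mL (log2 fold change −0.92 ± 0.16, edgeR adjusted p = 1.57e-04). The groups did not overlap in any of these members. MT1M was called on few counts, 2 in the 500 µg/mL libraries together and 38 in the 100 µg/mL libraries, a ratio of 0.0529 (95% exact interval 0.00618 to 0.205, counting error only; edgeR adjusted p = 9.54e-06). MT1A was the member that did not pass the test (log2 fold change −0.38, edgeR adjusted p = 0.464).

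The promoters of MT1X and MT2A are shown because metallothioneins fell together. The capitals mark metal response element cores, searched as TGCACNC or TGCGCNC on both strands. MT1X is read from chr16:56682220-56682519 and MT2A from chr16:56608334-56608633, both on the plus strand (RefSeq, GRCh38.p14).
MT1X: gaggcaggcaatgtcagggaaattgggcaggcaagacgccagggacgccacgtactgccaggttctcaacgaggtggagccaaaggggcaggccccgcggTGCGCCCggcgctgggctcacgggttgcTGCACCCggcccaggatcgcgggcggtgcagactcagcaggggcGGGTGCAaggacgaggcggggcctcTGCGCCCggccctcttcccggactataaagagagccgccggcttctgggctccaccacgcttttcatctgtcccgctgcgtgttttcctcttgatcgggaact
MT2A: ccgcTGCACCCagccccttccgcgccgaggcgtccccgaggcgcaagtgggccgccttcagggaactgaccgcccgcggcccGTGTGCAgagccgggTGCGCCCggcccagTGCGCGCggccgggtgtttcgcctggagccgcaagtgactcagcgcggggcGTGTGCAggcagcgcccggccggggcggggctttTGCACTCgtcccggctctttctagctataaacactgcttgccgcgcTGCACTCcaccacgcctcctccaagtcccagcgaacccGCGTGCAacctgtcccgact
MT1X holds 4 such matches and MT2A 8, counted on both strands. At least 4 are held by 0.593% and at least 8 by 0.022% of the 27305 promoters, and at least 1 by 29.3%. MT1G, MT1F, MT1E and MT1M are not shown. Other zinc genes moved less. Of 19 tested zinc transporters and MTF1, 2 rose and 2 fell, beside 2.89% higher and 2.05% lower of all genes tested. SLC39A10, a zinc importer of the cell surface, rose to 25.2, 25.0 and 23.8 CPM at 500 µg/mL, against 13.8, 15.7 and 14.7 CPM at 100 µg/mL (log2 fold change 0.75 ± 0.10, edgeR adjusted p = 1.62e-07). SLC30A1, the zinc exporter that is itself an MTF1 target, fell to 82.7, 77.9 and 74.9 CPM, against 96.2, 90.1 and 102.1 CPM at 100 µg/mL (log2 fold change −0.29, edgeR adjusted p = 0.00198).

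HAMP, which encodes hepcidin, had the largest fall among called genes of at least 5 CPM. It had 4.15, 4.24 and 4.17 CPM at 500 µg/mL, against 20.8, 16.6 and 18.5 CPM at 100 µg/mL (log2 fold change −2.16 ± 0.16, edgeR adjusted p = 1.40e-13). Its 3 libraries at 500 µg/mL were nearly alike and lay far below every library at 100 µg/mL. HAMP (chr19:35280716-35285143 in GENCODE v29) is shown with its promoter (RefSeq, GRCh38.p14, chr19:35282278-35282577, plus strand), in which the capitals mark the only GGCGCC, a core of the BMP response element, at position −105.
HAMP: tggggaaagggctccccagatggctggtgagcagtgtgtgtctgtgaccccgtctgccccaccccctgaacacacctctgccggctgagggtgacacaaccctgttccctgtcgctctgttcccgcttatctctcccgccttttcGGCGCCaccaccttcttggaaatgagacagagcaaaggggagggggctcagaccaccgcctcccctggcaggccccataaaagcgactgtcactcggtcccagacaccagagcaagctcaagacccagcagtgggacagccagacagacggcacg
At least 1 GGCGCC is held by 19% of the 27305 promoters.

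Other genes of the BMP and SMAD branch fell as well. ID1, an inhibitor of helix-loop-helix factors and a direct SMAD target, had 79.2, 90.2 and 88.9 CPM at 500 µg/mL, against 149.7, 145.8 and 149.1 CPM at 100 µg/mL (log2 fold change −0.78 ± 0.08, edgeR adjusted p = 1.98e-09). Its relatives ID2 and ID3 fell by 0.74 and 0.83 on the log2 scale (edgeR adjusted p = 6.30e-08 and 2.85e-06). SMAD7, which blocks the receptors' signal, had 15.2, 13.9 and 15.2 CPM at 500 µg/mL, against 23.9, 21.6 and 18.5 CPM at 100 µg/mL (log2 fold change −0.54 ± 0.09, edgeR adjusted p = 2.48e-05). SMAD6, the inhibitor that acts mainly on BMP signals, had 12.4, 13.4 and 11.5 CPM, against 17.4, 16.7 and 15.3 CPM at 100 µg/mL (log2 fold change −0.41 ± 0.09, edgeR adjusted p = 0.00124). In none of these genes did the groups overlap. Among all genes tested, 2.05% fell and 2.89% rose. Of the 18 tested iron genes, which include ID1, SMAD6 and SMAD7, 4 fell, 1 rose and 13 did not pass the test. The one that rose was CP, ceruloplasmin, the copper ferroxidase that loads iron onto transferrin, with 157.1, 158.6 and 167.0 CPM at 500 µg/mL, against 114.4, 109.5 and 124.3 CPM at 100 µg/mL (log2 fold change 0.47 ± 0.10, edgeR adjusted p = 0.0011).

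Genes that insulin holds back through FOXO1 were among the largest increases. IGFBP1, a secreted binder of insulin-like growth factors, had 98.0, 105.4 and 124.6 CPM at 500 µg/mL, against 38.1, 31.3 and 39.2 CPM at 100 µg/mL (log2 fold change 1.59 ± 0.23, edgeR adjusted p = 5.00e-06). G6PC1, the glucose-6-phosphatase that releases free glucose, had 5.56, 5.66 and 7.05 CPM, against 3.41, 2.17 and 2.21 CPM at 100 µg/mL (log2 fold change 1.21 ± 0.19, edgeR adjusted p = 1.71e-05). DEPP1, another FOXO target, had 33.5, 38.4 and 41.4 CPM, against 20.8, 20.7 and 16.5 CPM at 100 µg/mL (log2 fold change 0.97 ± 0.15). The groups did not overlap in any of these genes. Of 16 tested gluconeogenesis and FOXO genes, 5 rose and none fell, with a median log2 fold change of 0.228. The count was 3 without replicate 3 at 500 µg/mL and 3 without replicate 2 at 100 µg/mL. AQP3, a channel for water and glycerol, rose to 6.55, 5.99 and 5.75 CPM, against 2.56, 2.74 and 2.71 CPM at 100 µg/mL (log2 fold change 1.19 ± 0.12, edgeR adjusted p = 4.32e-10).

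Most genes of sterol and fatty acid synthesis fell. Of 26 tested genes of cholesterol synthesis and uptake, 18 fell and none rose, with a median log2 fold change of −0.278. HMGCS1, which makes the precursor of mevalonate, had 291.5, 282.8 and 263.8 CPM at 500 µg/mL, against 380.2, 377.6 and 428.0 CPM at 100 µg/mL (log2 fold change −0.50 ± 0.05, edgeR adjusted p = 9.51e-10). MVD, a later enzyme of the mevalonate pathway, fell by 0.42 on the log2 scale. SREBF2, which encodes the factor that drives the pathway, had a log2 fold change of −0.11 and did not pass the test (edgeR adjusted p = 0.337). Of 15 tested fatty acid synthesis genes, 10 fell and none rose, with a median log2 fold change of −0.246. ACSS2, which makes acetyl-CoA from acetate, had 88.8, 89.3 and 90.5 CPM at 500 µg/mL, against 123.4, 129.0 and 124.0 CPM at 100 µg/mL (log2 fold change −0.49 ± 0.04, edgeR adjusted p = 4.98e-12). The desaturase FADS2 fell by 0.40, the glycerol-3-phosphate acyltransferase GPAM by 0.41 and fatty acid synthase FASN by 0.35 on the log2 scale. SREBF1, the gene of the factor most tied to fatty acid synthesis, fell by 0.25 (edgeR adjusted p = 0.0138). The counts of both lists stayed within 1.5 times when any of the 6 libraries was left out.

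Part of the cell cycle genes fell by small amounts. Of 26 tested G2 and mitosis genes, 14 fell and none rose, and all 26 had a negative log2 fold change, with a median of −0.181. CCNB1, the cyclin that drives entry into mitosis, had 104.3, 107.5 and 105.3 CPM at 500 µg/mL, against 128.0, 118.0 and 133.4 CPM at 100 µg/mL (log2 fold change −0.26 ± 0.05, edgeR adjusted p = 1.22e-04). MKI67, the proliferation marker, had a log2 fold change of −0.17 and did not pass the test (edgeR adjusted p = 0.366). Of 30 tested G1-S and replication genes, 9 fell and none rose, with a median log2 fold change of −0.137. MCM7, a subunit of the replicative helicase, had 235.1, 231.9 and 227.2 CPM, against 276.2, 272.2 and 275.8 CPM at 100 µg/mL (log2 fold change −0.25 ± 0.05, edgeR adjusted p = 3.88e-04). The mitotic count was 8 without replicate 3 at 100 µg/mL, and the replication count was 2 without replicate 3 at 500 µg/mL and 4 without replicate 2 at 100 µg/mL. In bulk RNA, fewer cycling cells and less of these mRNAs per cell cannot be told apart.

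Of 24 tested genes of glucose uptake, glycolysis and lactate, 10 rose and none fell, with a median log2 fold change of 0.148. SLC2A1, the glucose transporter GLUT1, had 913.9, 938.8 and 955.9 CPM at 500 µg/mL, against 704.0, 693.3 and 689.8 CPM at 100 µg/mL (log2 fold change 0.43 ± 0.05, edgeR adjusted p = 2.28e-09). LDHA, the lactate dehydrogenase subunit, rose by 0.24 on the log2 scale, while GAPDH had a log2 fold change of 0.12 and did not pass the test (edgeR adjusted p = 0.246). The count was 5 without replicate 3 at 500 µg/mL. Of 23 tested hypoxia-inducible factor targets outside glycolysis, 6 rose and none fell, with a median log2 fold change of 0.228. LOXL2, a secreted amine oxidase that crosslinks collagen, had 2.7, 2.79 and 2.84 CPM, against 1.51, 1.49 and 1.58 CPM at 100 µg/mL (log2 fold change 0.86 ± 0.17, edgeR adjusted p = 6.35e-04). NDRG1, a stress-responsive gene, had 60.6, 61.0 and 75.5 CPM, against 45.4, 43.5 and 44.8 CPM at 100 µg/mL (log2 fold change 0.56 ± 0.11, edgeR adjusted p = 7.71e-04), with replicate 3 the highest of the 500 µg/mL libraries. VEGFA, the angiogenic growth factor, had a log2 fold change of 0.05 (edgeR adjusted p = 0.703), and CA9, a carbonic anhydrase much used as a hypoxia marker, one of 1.48 that did not pass the test (edgeR adjusted p = 0.117). With a replicate block, 12 of these targets were called.

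Ligands of the EGF receptor and feedback genes of the MAPK cascade below it were higher in part. Of 15 tested EGFR ligands and MAPK feedback genes, 6 rose and none fell, with a median log2 fold change of 0.182. The ligand AREG, amphiregulin, had 8.86, 10.7 and 9.23 CPM at 500 µg/mL, against 6.04, 5.73 and 6.21 CPM at 100 µg/mL (log2 fold change 0.68 ± 0.11, edgeR adjusted p = 2.35e-05). DUSP6, the phosphatase that switches off ERK, had 63.1, 63.9 and 66.5 CPM, against 39.0, 41.2 and 43.6 CPM at 100 µg/mL (log2 fold change 0.65 ± 0.08, edgeR adjusted p = 2.41e-07). The ligand TGFA rose by 0.37 on the log2 scale (edgeR adjusted p = 1.71e-05). HBEGF, a further ligand, had 2.40, 2.04 and 4.09 CPM, against 1.86, 1.88 and 1.83 CPM at 100 µg/mL (edgeR adjusted p = 0.0418), but it was called in only 3 of 12 alternatives, with an adjusted p of 0.68 without replicate 3 at 500 µg/mL. The list's count was 3 without replicate 1 at 100 µg/mL.

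Of 19 tested immediate early genes 5 rose and none fell, with a median log2 fold change of 0.252. EGR1, a zinc-finger factor that growth signals switch on within minutes, had 17.0, 16.7 and 21.6 CPM at 500 µg/mL, against 12.9, 12.5 and 13.8 CPM at 100 µg/mL (log2 fold change 0.50, edgeR adjusted p = 4.41e-04). KLF6 and JUN rose by 0.35 and 0.30 on the log2 scale. IER3 had 73.4, 81.2 and 98.5 CPM, against 57.2, 60.2 and 50.9 CPM at 100 µg/mL (log2 fold change 0.59 ± 0.11, edgeR adjusted p = 1.70e-04), again with replicate 3 the highest at 500 µg/mL, and its adjusted p was 0.0834 with only the groups compared and 0.219 with a replicate block added to that fit. The count was 3 without that library.

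FST, CD109, GDF15 and L1CAM were also among the 15 largest increases, and were called in all 12 alternatives. FST, follistatin, which traps activins, had 76.4, 83.0 and 78.6 CPM at 500 µg/mL, against 48.2, 47.2 and 48.2 CPM at 100 µg/mL (log2 fold change 0.73 ± 0.05, edgeR adjusted p = 4.22e-16). CD109, a surface protein that binds TGF-beta, had 20.6, 20.0 and 16.4 CPM, against 10.3, 9.91 and 11.5 CPM at 100 µg/mL (log2 fold change 0.84 ± 0.09, edgeR adjusted p = 4.90e-10). The groups did not overlap in these genes. GDF15, a stress-induced cytokine, rose to 145.2, 167.4 and 181.9 CPM, against 94.4, 101.6 and 103.0 CPM at 100 µg/mL (log2 fold change 0.73 ± 0.09, edgeR adjusted p = 4.38e-07). In the lists that hold it, and counting GDF15 itself, 3 of 20 integrated stress response genes and 2 of 24 p53 targets were higher. None was lower, and 2.89% of all genes tested were higher. L1CAM, an adhesion molecule, rose by 0.70 on the log2 scale (edgeR adjusted p = 2.71e-11). Of 18 tested collagen and matrix genes 6 rose and none fell, with a median log2 fold change of 0.176. FN1, fibronectin, had 17380, 17360 and 17140 CPM at 500 µg/mL, against 13430, 13710 and 13460 CPM at 100 µg/mL (log2 fold change 0.35 ± 0.06, edgeR adjusted p = 2.72e-05), and PLOD2, a lysyl hydroxylase of collagen, rose by 0.42. Of 20 tested YAP targets and actin genes 4 rose and none fell, among them CCN1, a matrix protein that YAP induces, with a log2 fold change of 0.50 ± 0.09 (edgeR adjusted p = 1.54e-04). That count was 2 without replicate 1 at 100 µg/mL and 2 without replicate 2 or replicate 3 at 500 µg/mL.

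Hepatocyte regulators changed in both directions. NR1H4, the bile acid receptor FXR, had 25.6, 25.7 and 24.0 CPM at 500 µg/mL, against 36.1, 38.1 and 39.2 CPM at 100 µg/mL (log2 fold change −0.59 ± 0.06, edgeR adjusted p = 2.15e-10). CEBPA, a factor of hepatocyte differentiation, had 104.1, 103.4 and 100.1 CPM, against 157.2, 148.0 and 136.9 CPM at 100 µg/mL (log2 fold change −0.52 ± 0.11, edgeR adjusted p = 0.00125). NR0B2, the repressor SHP that bile acids induce through FXR, rose to 50.8, 55.3 and 59.8 CPM, against 40.5, 41.5 and 40.1 CPM at 100 µg/mL (log2 fold change 0.44 ± 0.07, edgeR adjusted p = 1.44e-05). Of 19 tested hepatocyte transcription factors 1 rose and 3 fell, and of 17 tested bile acid genes 4 rose and 1 fell. Among all genes tested, 2.89% rose and 2.05% fell. Without replicate 3 at 500 µg/mL, 2 bile acid genes rose. Of 19 tested autophagy genes 5 rose and none fell, among them the cargo receptors SQSTM1 and OPTN, with log2 fold changes of 0.30 and 0.35.

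The 15 hepatic identity markers of HepG2 were all expressed, none passed the test, and their log2 fold changes ran from −0.113 to 0.23. ALB and AFP, albumin and its fetal counterpart, each had a log2 fold change of −0.06 (edgeR adjusted p = 0.679 and 0.695). LYZ, the secreted enzyme lysozyme and a usual marker of myeloid cells, rose to 1763, 1827 and 1873 CPM at 500 µg/mL, against 1204, 1200 and 1207 CPM at 100 µg/mL (log2 fold change 0.60 ± 0.06, edgeR adjusted p = 9.67e-11). It was the single called gene among the 10 leukocyte markers, 4 of which were tested. Without LYZ the leukocyte markers summed to 42.5 to 45.2 CPM of the unscaled totals at 500 µg/mL and to 35.6 to 44.5 on that scale at 100 µg/mL. CD3E and MS4A1, which define T and B cells, were at 0 in all 6 libraries, and PTPRC, the pan-leukocyte marker CD45, had 0 counts at 500 µg/mL and 1 count at 100 µg/mL. Among the fibroblast, endothelial, cholangiocyte and neural markers none of the 12 tested was called. The fibroblast markers DCN, LUM and POSTN were at 0 in all 6 libraries, while PDGFRB had 943 counts at 500 µg/mL and 802 at 100 µg/mL. The cholangiocyte markers, mostly KRT19, SOX9 and EPCAM, summed to 636 to 665 CPM of the unscaled totals at 500 µg/mL and 610 to 636 at 100 µg/mL. On that scale the neural markers, mostly TUBB3, summed to 265 to 278 at 500 µg/mL and 237 to 250 at 100 µg/mL.

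No member was called in 12 of the 54 lists, where 4.94% of all genes tested were called and a short list may hold none. The 12 lists include all 72 cytosolic ribosomal protein genes, whose log2 fold changes ran from −0.0859 to 0.154, and the 30 nuclear-encoded respiratory chain, 31 proteasome, 22 interferon-stimulated and 13 mitochondrially encoded genes tested. They also include the fibroblast and neural markers, with 2 tested members each, and the endothelial and cholangiocyte markers, with 4 each, which are too few to read.

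**Figure D1:**
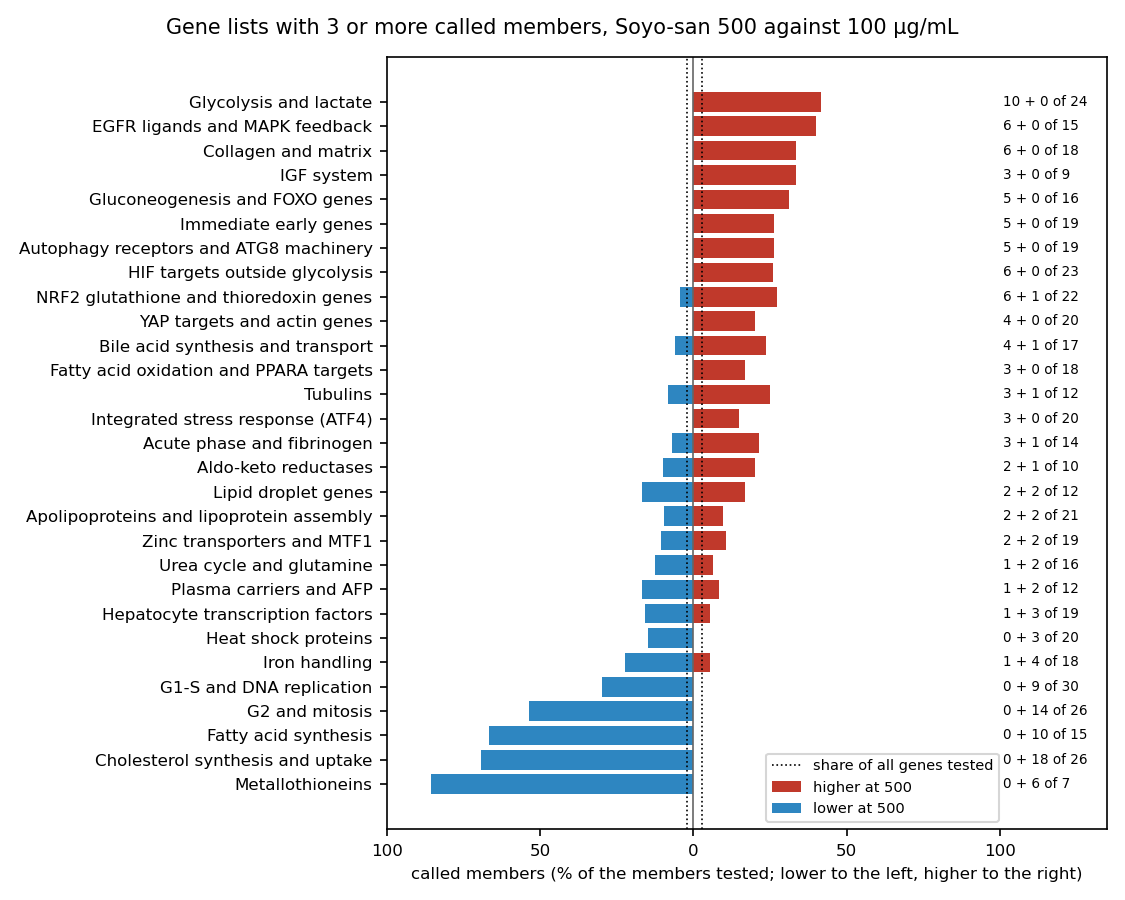
Share of the tested members (percent) called lower, to the left, and higher, to the right, at 500 than at 100 µg/mL in each gene list with 3 or more called members, with the counts (higher + lower of tested) beside it and dotted lines at the shares of all genes, 2.05% and 2.89%. The metallothionein (6 of 7), cholesterol (18 of 26), fatty acid synthesis (10 of 15) and mitosis (14 of 26) lists hold calls in the lower direction and none in the higher, and glycolysis (10 of 24) the reverse.

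The lower dose step, 100 against 20 µg/mL, is also 5-fold and shares the 100 µg/mL libraries with the upper one, so the steps' values are given side by side. In the upper step 822 genes were called and 2484 had an unadjusted p under 0.05, against 1 called gene (0.00601% of 16644), CYP1A1, and 636 at that unadjusted p in the lower step. DESeq2 called 877 genes in the upper step and 4 in the lower. CYP1A1 stood at 8.49, 7.07 and 7.68 CPM in vehicle, 10.7, 9.86 and 9.25 CPM at 20 µg/mL, 21.9, 24.2 and 19.9 CPM at 100 µg/mL and 97.7, 99.1 and 97.6 CPM at 500 µg/mL. Its lower step was a log2 fold change of 1.15 ± 0.07 (edgeR adjusted p = 3.41e-17). HAMP had log2 fold changes of −2.16 in the upper and −0.41 in the lower step, where it did not pass the test (edgeR adjusted p = 0.901), though it was called with no filter on low counts. The metallothionein sum was 454.5, 428.5 and 432.6 CPM in vehicle, 375.3, 392.2 and 441.8 CPM at 20 µg/mL, 343.5, 329.4 and 317.6 CPM at 100 µg/mL and 147.2, 136.1 and 142.8 CPM at 500 µg/mL. IGFBP1 was at 45.1, 34.7 and 47.3 CPM at 20 µg/mL, which overlaps with the 100 µg/mL libraries, and the log2 fold change of its lower step was −0.22. List medians of the lower step were −0.303 for the metallothioneins, −0.0305 for cholesterol, −0.0113 for mitosis and 0.00161 for glycolysis genes. The nuclear RNA MALAT1 ran from 399.9 to 508.8 CPM of the unscaled totals in the Soyo-san libraries, against 243.1 to 259.4 on that scale in the vehicle libraries, which carry another sample code, and no dose is tested against vehicle here.

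**Figure D2:**
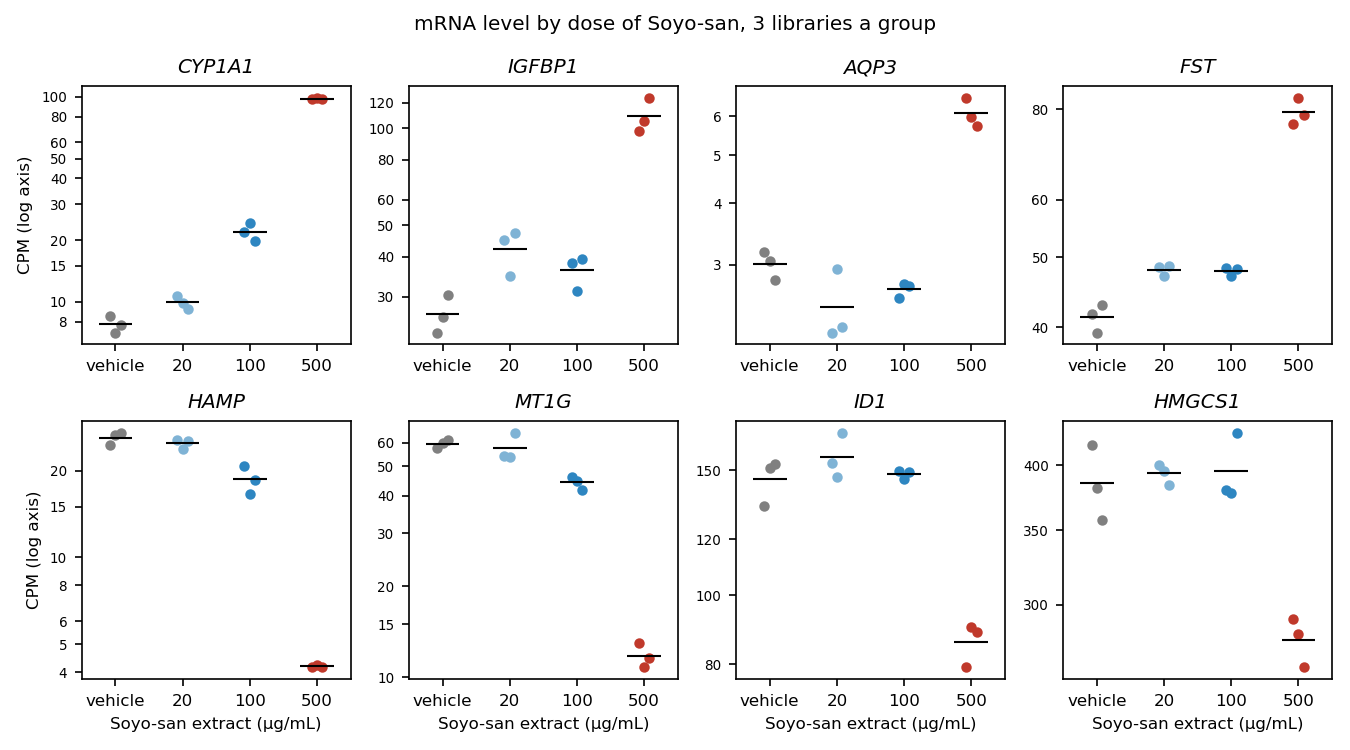
Levels of 8 genes in CPM on a log axis across the dose course of Soyo-san, with a point for each of the 3 libraries and a line at the mean for vehicle, 20, 100 and 500 µg/mL. CYP1A1 is higher at each dose than at the one before, while in the other genes the 500 µg/mL libraries stand apart from all others, as for HAMP with 4.15 to 4.24 CPM at 500 µg/mL and at least 16.6 CPM in every other library.

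The difference between the steps was itself tested. 42 genes (0.252%) differed, 24 with a more positive and 18 with a more negative upper step, and all 42 were called in the upper step and larger there. CYP1A1 differed by 1.01 (edgeR adjusted p = 2.09e-07), HAMP by −1.75 (edgeR adjusted p = 2.51e-05), MT1G by −1.54 (edgeR adjusted p = 0.00156) and FST by 0.73 (edgeR adjusted p = 3.06e-07). G6PC1 differed by 1.66 and IGFBP1 by 1.81 (edgeR adjusted p = 0.0161 and 0.0402). G6PC1 lost the call without replicate 2 or 3 at 100 µg/mL or replicate 3 at 500 µg/mL, and IGFBP1 lost it without any single Soyo-san library other than replicate 1 at 500 and replicate 2 at 20 µg/mL. The count of differing genes was 9, 13 and 16 without replicates 1, 2 and 3 at 100 µg/mL, and 24 without either replicate 2 or replicate 3 at 500 µg/mL.

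**Figure D3:**
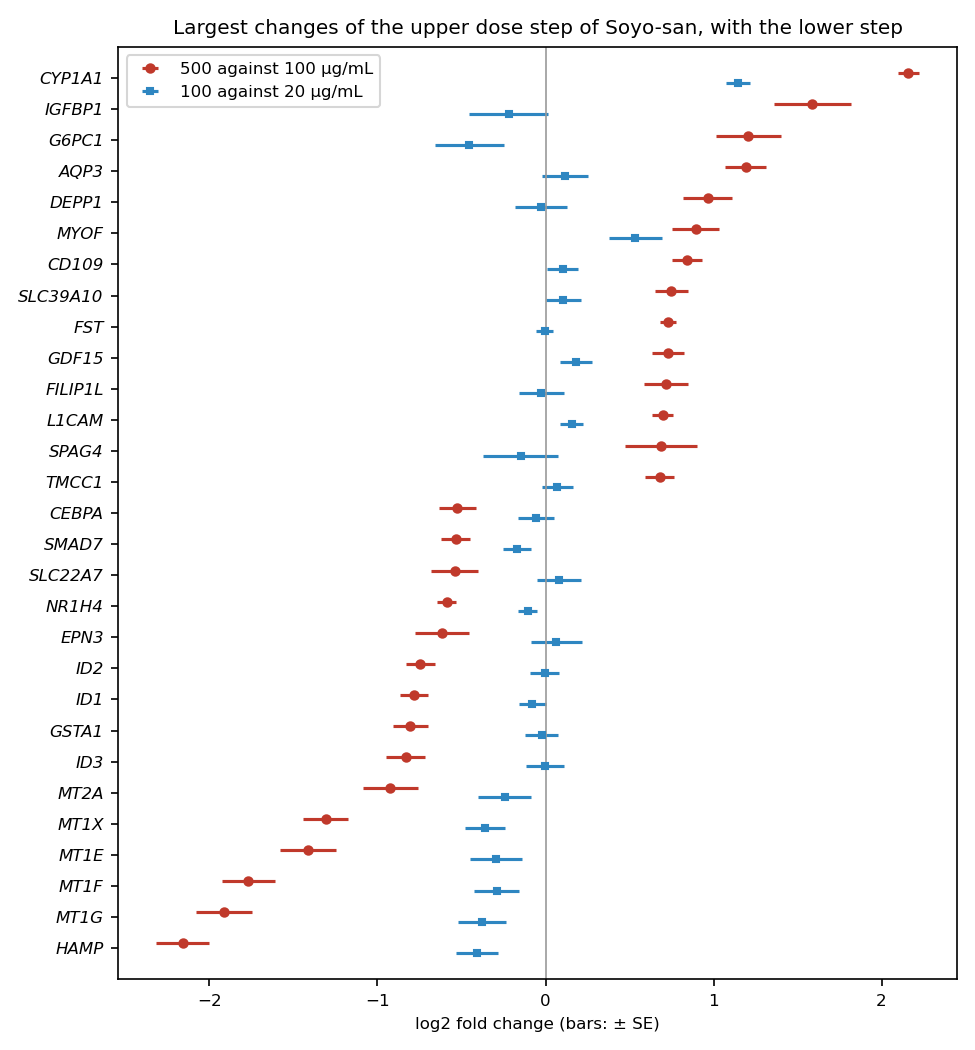
Log2 fold changes with standard errors (bars) of the upper (red circles) and lower (blue squares) dose step for genes from the 15 largest increases and the 15 largest decreases of the upper step, among called genes of at least 5 CPM whose libraries did not overlap. CYP1A1 has 2.16 in the upper and 1.15 in the lower step, and HAMP has −2.16 and −0.41.

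**Figure D4:**
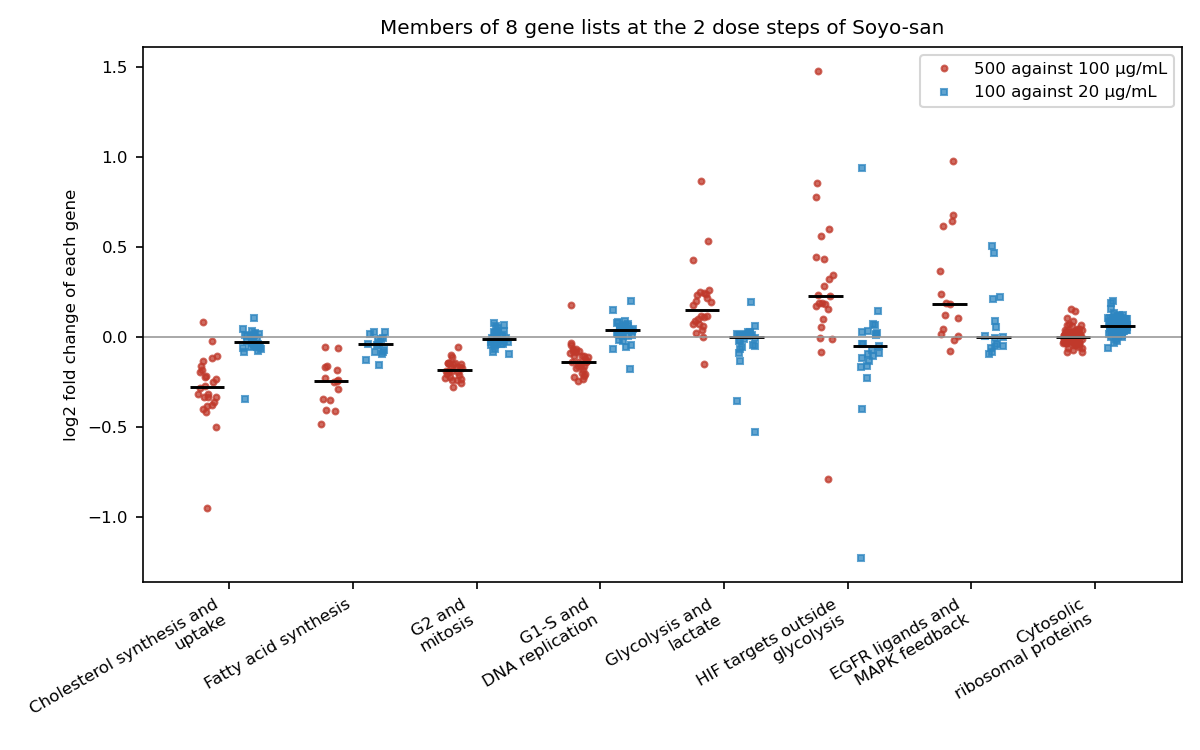
Log2 fold change of each tested member of 8 gene lists in the upper (red circles) and lower (blue squares) dose step, with the median of each as a black line. The medians of the upper step are −0.278 for cholesterol, −0.181 for mitosis and 0.148 for glycolysis genes, and those of the lower step are −0.0305, −0.0113 and 0.00161.

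The same 500 against 100 µg/mL step was measured for the other extracts, whose libraries share none with Soyo-san. It had 12 called genes for Okbyeongpung-san, 789 for Guibi-tang and 4319 for Menthae Herba. Over the 822 genes called for Soyo-san, a set chosen on the Soyo-san values, the log2 fold changes correlated at Pearson r = 0.856 with those of Menthae Herba, 0.8 with Guibi-tang and 0.496 with Okbyeongpung-san, as a description across genes that are not independent. The sign was the same in 811 genes (98.7%) for Menthae Herba, 743 (90.4%) for Guibi-tang and 589 (71.7%) for Okbyeongpung-san. The median log2 fold change of the 481 higher genes was 0.328 for Soyo-san, and 0.523 for Menthae Herba, 0.202 for Guibi-tang and 0.0726 for Okbyeongpung-san. The herb and the formula were given at the same weight of extract, and the amount of each ingredient in the formula's extract is not given in the sources used here.

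Against Menthae Herba, the Soyo-san step differed in 568 genes (3.41%). Of the 822 genes called for Soyo-san 219 differed, and 216 of those were smaller in Soyo-san. Another 349 genes differed that were not called for Soyo-san. HAMP fell to 4.19 ± 0.05 CPM at 500 µg/mL of Soyo-san, against 18.6 ± 2.1 CPM at 100 µg/mL, and to 0.689 ± 0.2 CPM with Menthae Herba, against 20.6 ± 0.6 CPM (SD, n = 3 each), and the log2 fold changes of −2.16 and −4.87 differed by 2.71 (edgeR adjusted p = 6.29e-08). ID1 differed by 1.14, with log2 fold changes of −0.78 for Soyo-san and −1.92 for Menthae Herba (edgeR adjusted p = 5.38e-09). EGR1 rose by 0.50 with Soyo-san and 1.5 with Menthae Herba on the log2 scale (edgeR adjusted p of the difference 1.12e-06). The scaffold protein AKAP12 rose by 0.58 and 1.47 (edgeR adjusted p of the difference 7.15e-10). CYP1A1 was in the same direction, 2.16 for Soyo-san and 2.79 for Menthae Herba (edgeR adjusted p of the difference 3.82e-06). Among the called genes, the 3 that differed and were larger in Soyo-san were MT2A (−0.92 for Soyo-san and −0.11 for Menthae Herba, edgeR adjusted p of the difference 0.0421), PRDM16, a regulator of brown fat (−0.54 and 0.32), and SLC1A2, a glutamate transporter (−0.42 and 0.37). These were named after their values were seen. MT1G, by contrast, had log2 fold changes of −1.91 and −2.20 that did not pass the test of the difference (edgeR adjusted p = 0.776). The Menthae Herba libraries carry another first code number than those of Soyo-san. At these doses their MALAT1 ran from 198.9 to 274.6 CPM of the unscaled totals, against 399.9 to 485.5 with Soyo-san. The part of this in the differences was not tested.

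Against Guibi-tang 39 genes (0.234%) differed. HAMP stood at 17.5 ± 0.9 CPM at 500 µg/mL of Guibi-tang, against 27.2 ± 4.5 CPM at 100 µg/mL (SD, n = 3 each), a log2 fold change of −0.63, and its difference of −1.52 from Soyo-san passed the test (edgeR adjusted p = 1.30e-05). Of the 822 genes called for Soyo-san 29 differed, and 23 had the larger change with Soyo-san. Taking genes called for Soyo-san favours larger changes with it, and another 10 genes differed that were not called for Soyo-san. MATN3, a matrix protein of cartilage, had log2 fold changes of 0.42 for Soyo-san and −0.23 for Guibi-tang (edgeR adjusted p of the difference 9.60e-08), and LYZ 0.60 and 0.19 (edgeR adjusted p of the difference 0.00654). The other 6 had the larger absolute value with Guibi-tang. AKR1B10 (0.61 for Soyo-san and 1.06 for Guibi-tang) and SQSTM1 (0.30 and 0.77) were positive with both. UAP1L1 (−0.26 and 0.61), ZNF114 (−0.28 and 0.31), CYP24A1 (−0.22 and 0.25) and EPAS1 (−0.19 and 0.22, named after its values were seen) had opposite signs. The Soyo-san calls of UAP1L1, ZNF114 and CYP24A1 were kept in 8, 6 and 5 of 12 alternatives. CYP1A1 and MT1G did not pass the test of the difference (edgeR adjusted p = 0.119 and 0.612). The Guibi-tang libraries were not alike in MALAT1, given here in CPM of the unscaled totals. It stood at 217.7, 211.6 and 444 at 500 µg/mL, against 213.5, 512.8 and 442.5 at 100 µg/mL. The high and low libraries were thus not evenly spread over the 2 doses, and the part of this in these differences was not tested. Without replicate 3 of Soyo-san at 100 µg/mL, 61 genes differed.

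**Figure D5:**
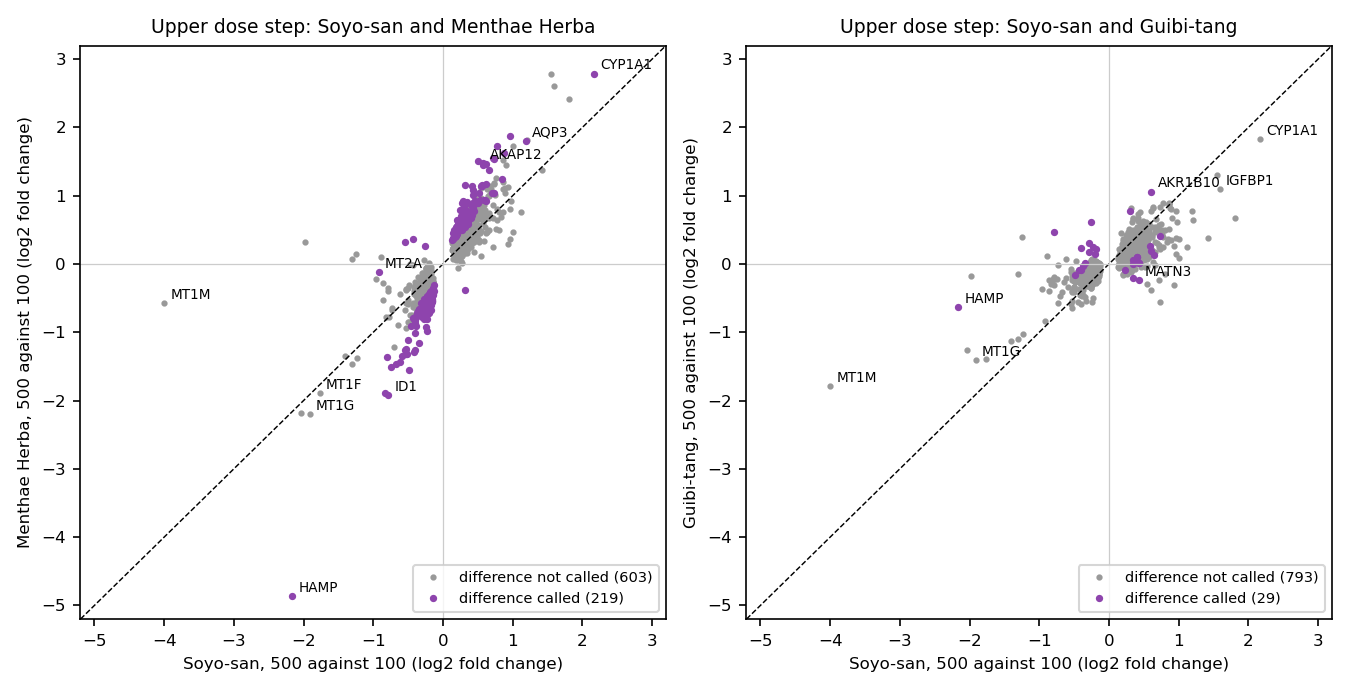
Log2 fold change of the 500 over 100 µg/mL step of Soyo-san (horizontal) against that of Menthae Herba and of Guibi-tang (vertical), a point for each of the 822 genes called for Soyo-san and a dashed line at equal change. Purple points are the 219 and 29 genes whose change differed between the extracts. The position of MT1M rests on 2 counts at 500 and 38 at 100 µg/mL of Soyo-san.

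Against Okbyeongpung-san, whose libraries carry the same first code number as Soyo-san, 154 genes (0.925%) differed. All 144 of those that were called for Soyo-san had the larger change with Soyo-san, which the choice of called genes favours. The other 10 were not called for Soyo-san. HAMP stood at 28.1 ± 1.1 CPM at 500 µg/mL of Okbyeongpung-san, against 25.3 ± 4.2 CPM at 100 µg/mL (SD, n = 3 each), and its log2 fold change of 0.15 differed from Soyo-san's by −2.31 (edgeR adjusted p = 1.23e-10). MT1G had a log2 fold change of −0.20 and AQP3 one of 0.02 for Okbyeongpung-san, and both differed from Soyo-san. CYP1A1 rose with both, by 2.16 for Soyo-san and 1.39 for Okbyeongpung-san on the log2 scale, a difference of 0.77 (edgeR adjusted p = 3.08e-07). The count of differing genes was 92 without replicate 2 of Soyo-san at 500 µg/mL, 102 without replicate 1 of Okbyeongpung-san at 500 µg/mL and 72 without its replicate 3 at 100 µg/mL.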

How the data were processed

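The authors deposited a table of expected counts per Ensembl gene (60675 genes, 60 libraries). Per the submitters' processing notes, FastQC 0.11.9, Trim Galore 0.6.5, STAR 2.7.3a and RSEM 1.3.3 were used with GRCh38. Neither the annotation release nor the strand setting of the counting is given in the sources used here, so a gene and an overlapping antisense gene may share reads. 71.9% of the nonzero values had no decimals (tolerance 1e-09), and all were rounded before testing. Rounding moves a value by less than 1 count.

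Symbols came from a gene name table that holds 56558 of the IDs, and positions from GENCODE v29. edgeR's filterByExpr by group (minimum count 10) left 16644 genes. TMM scaling and edgeR's robust quasi-likelihood model were applied over 57 libraries in 19 groups of 3, leaving out 3 single Soshiho-tang libraries. P-values were adjusted by Benjamini-Hochberg over all genes tested. Standard errors of log2 fold changes were taken as |log2 fold change|/sqrt(F). CPM use TMM-adjusted totals. Replicates differed beyond counting error, with a chi-square per degree of freedom of 3.62 to 13.2 between pairs at 500 µg/mL and 3.81 to 7.08 at 100 µg/mL.

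The members, the 54 gene lists and the tests were chosen with earlier results of these data known. Named genes were called, had a symbol and at least 5 CPM at either dose and did not overlap between doses, of which the 15 with the largest increase and decrease were kept. From each list, up to 3 called members were added with no minimum level, as were the 6 largest in each direction of each tested difference, and CYP1A1, HMOX1, CYP3A4 (not tested, as it was below the filter), ALB and AFP. Further list members are named to show what a list did and were chosen after their values were seen. A few of these genes are not reported here. Alternatives were RLE scaling, no filter, DESeq2 1.42.0, the groups compared alone, a replicate block and leaving out each library. Software was R 4.3.3 with edgeR 4.0.16 and limma 3.58.1, and Python 3.11.15.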

Additional observations from a re-analysis of the deposited data

Results flagged for a closer look

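Differences that passed a test of the difference itself are given as log2 values (edgeR quasi-likelihood test, adjusted p under 0.05), for genes from the 6 largest in each direction among those called in the upper Soyo-san step. The upper step minus the lower step was −1.75 for HAMP, −1.54 for MT1G, −1.48 for MT1F, −0.949 for MT1X, −0.782 for GSTA1 and −0.739 for ID2. It was 0.741 for CD109, 1.01 for CYP1A1, 1.08 for AQP3, 1.66 for G6PC1 and 1.81 for IGFBP1. Those of HAMP, MT1G, MT1F and CYP1A1 kept the call whichever of the 9 Soyo-san libraries was left out, and the other 7 lost it without at least 1 of them.

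The Soyo-san step minus that of Okbyeongpung-san was −2.31 for HAMP, −1.71 for MT1G, −1.54 for MT1F, −1.32 for MT1E, −1.12 for MT1X and −0.973 for ID3. In the other direction it was 0.689 for CEMIP, a hyaluronan-degrading protein, 0.7 for the transcription factor SOX4, 0.718 for CD109, 0.766 for CYP1A1, 0.819 for the pseudogene CCT8P1, which may share reads with its parent gene, and 1.17 for AQP3.

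The Soyo-san step minus that of Guibi-tang was −1.52 for HAMP, −0.868 for UAP1L1, −0.636 for the deiodinase gene DIO1, −0.596 for ZNF114, −0.473 for the autophagy receptor gene SQSTM1 and −0.473 for CYP24A1, the vitamin D hydroxylase. It was 0.405 for LYZ, 0.422 for KDELR3, a receptor that returns proteins to the ER, 0.422 for the monooxygenase FMO5, 0.511 for DUSP6, 0.548 for the sugar transporter SLC2A10 and 0.657 for MATN3. DUSP6 and KDELR3 lost the call without any of several libraries.

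The Soyo-san step minus that of Menthae Herba was −1 for EGR1, −0.905 for DEPP1, −0.895 for AKAP12, −0.876 for CSGALNACT1, which acts in chondroitin sulfate synthesis, and −0.842 for HBEGF. It was 0.859 for ACSM2A, a medium-chain acyl-CoA synthetase, 0.873 for HSD11B2, which inactivates cortisol, 1.06 for ID3, 1.07 for GSTA2, 1.14 for ID1 and 2.71 for HAMP. ACSM2A, HSD11B2 and GSTA2 had log2 fold changes of −0.39, −0.42 and −0.48 with Soyo-san. For them, as for ID3, ID1 and HAMP, the positive value goes with a smaller fall with Soyo-san than with Menthae Herba. HBEGF lost the call without 5 of the 6 Menthae Herba libraries in turn. Single genes were not examined for 1 sample far from the rest of its group, since groups hold 3 libraries.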

How the results depend on the processing

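The 822 genes called in the upper step became 820 with RLE scaling, 763 with no filter, 833 with only the groups compared and 877 with DESeq2, and 514 to 671 with 1 library left out. Of 130 called genes that the naming rule takes, not all of which are described, 86 were called in the same direction under every alternative run. Between 500 and 100 µg/mL of Soyo-san, same-numbered libraries did not deviate together (r = −0.0879, 0.0899 and −0.107 over 9844 genes). That check covers no other extract and cannot exclude a replicate effect there. With a replicate block the upper step had 987 calls, the lower step 2 and the step difference 87, and the differences from Okbyeongpung-san and Guibi-tang had 218 and 90.

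For counts that moved by over 1.5 times the cause was not tested. The 1 call of the lower step became 84 with no filter, 4 with only the groups compared, 27 with only those groups and a replicate block, 4 with DESeq2, and 1 to 2 with a library left out. The 42 step differences became 164 with no filter, 86 with DESeq2 and 9 to 41 with a library left out. The 39 differences from Guibi-tang became 165 with no filter, 19 with only the groups compared, 98 with DESeq2 and 26 to 61 with a library left out. The 154 from Okbyeongpung-san became 317 with no filter, 98 with only the groups compared and a block, and 72 to 175 with a library left out. The 568 from Menthae Herba became 889 with only the groups compared and 890 with a block added, and 402 to 525 with a library left out. Leaving out libraries of the other extracts was chosen after seeing the data.

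No sign turned in the upper step. In the lower step, without a call, leaving out a library turned the sign of GSTA1 (−0.0855 to 0.0323) and ID2 (−0.0461 to 0.0649). Depth limits genes of few counts, such as MT1M.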

Other observations

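Further genes changed in the upper Soyo-san step in lists where most members did not pass the test, beside 4.94% of all genes called. Of 18 tested genes of fatty acid oxidation and PPARA targets, 3 rose and none fell. VNN1, a pantetheinase and a sensitive PPARA target, had 2.91, 2.45 and 2.67 CPM at 500 µg/mL, against 1.55, 1.49 and 1.25 CPM at 100 µg/mL (log2 fold change 0.90 ± 0.19, edgeR adjusted p = 0.00109). CPT1A, the carnitine transferase that admits fatty acids to mitochondria, rose by 0.29 on the log2 scale and ACADVL, a dehydrogenase of long-chain acyl-CoA, by 0.28. Of 12 tested lipid droplet genes 2 rose and 2 fell, with the coat protein PLIN2 at a log2 fold change of 0.24 and the triglyceride synthase DGAT2 at −0.27. NPC1, which exports cholesterol from lysosomes, was the 1 called gene of 26 lysosomal ones, a share below that of all genes. It had 160.9, 155.7 and 157.0 CPM at 500 µg/mL, against 129.9, 124.4 and 127.9 CPM at 100 µg/mL (log2 fold change 0.31 ± 0.05, edgeR adjusted p = 2.85e-06).

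Single secreted liver proteins changed in both directions. SERPINA3, an acute phase protease inhibitor, had 131.1, 109.7 and 118.3 CPM at 500 µg/mL, against 90.0, 89.1 and 88.3 CPM at 100 µg/mL (log2 fold change 0.42 ± 0.08, edgeR adjusted p = 1.49e-04), while HP, haptoglobin, another acute phase protein, fell by 0.20 on the log2 scale (edgeR adjusted p = 0.00262). KNG1, the precursor of bradykinin, fell to 2.83, 2.75 and 3.04 CPM, against 5.27, 4.04 and 4.62 CPM at 100 µg/mL (log2 fold change −0.70 ± 0.12, edgeR adjusted p = 5.46e-05). Of 24 tested coagulation and complement genes 2 fell and none rose, and of 14 acute phase genes 3 rose and 1 fell. For these and the lists that follow, the shares of all genes tested were 2.89% higher and 2.05% lower. In the urea cycle list CPS1, which feeds ammonia into the cycle, and GLUD1, glutamate dehydrogenase, fell by 0.26 and 0.23 on the log2 scale, and ARG2, the mitochondrial arginase, rose by 0.29. Of 12 tubulin genes 3 rose, TUBA4A, TUBB6 and TUBA1A, with log2 fold changes of 0.59, 0.40 and 0.34, and 1 fell. Tubulins share sequence, so their single values depend on how shared reads were assigned.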
